A study of Mus musculus with 30 samples.

Results

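Clostridia_vadinBB60_group, Clostridia_UCG-014 and RF39 are 3 bacterial taxa known mainly from 16S rRNA gene sequences of bacteria that have not been grown in the laboratory. Their sequence variants (distinct 16S reads after error correction, each a row of the deposited count table) were chosen by the taxon name in the row's label and by having reads in at least 1 of the 30 libraries. Of the 3697 rows, 318 carried any of the 3 names; 222 of these held no reads, and the 96 with reads are described here, out of 953 rows with reads in all. The smallest members had 2 reads in total, and the rows just outside the choice had 0. There were 55 variants of vadinBB60, 24 of UCG-014 and 17 of RF39. No member carried the name of a described species: the species field read "uncultured_bacterium" in 33, "unidentified" in 34 and was empty in 22, and the other 7 named an uncultured member of the Clostridia, of the Clostridiales or of the rumen. The table holds no nucleotide sequences for its rows, so a variant is named by its taxon and its row number.

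The vadinBB60 group, named after a clone from an anaerobic digester, and UCG-014 are order-level branches of the Clostridia, the class of mostly strictly anaerobic, often spore-forming Firmicutes that ferment plant fibre and other substrates in the caecum and colon. RF39, first seen in the rumen, stands in the labels as an order of the Bacilli, and genomes assembled from gut DNA have shown it to be a lineage with small genomes that lacks many biosynthetic pathways. All 3 are regular, low-abundance residents of mouse stool. Gpr15l encodes a peptide secreted by the epithelium of colon and skin that binds GPR15, a homing receptor of T cells.

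Stool was sampled from female Gpr15l-/- mice (KO) and wild-type mice (WT). The 6 groups of 5 libraries were KO (libraries 1 to 5) and WT (6 to 10) at weaning, about 4 weeks of age; KO (11 to 15) and WT (16 to 20) after 4 to 5 weeks in cages of 2 to 7 mice that held both genotypes; and KO (21 to 25) and WT (26 to 30) 6 weeks after the genotypes had been parted again. The labels name no cage or litter and do not say whether a mouse was sampled more than once, so the p-values measure the spread between these libraries only. No group kept apart throughout was analysed here, so that what came with age and what came with co-housing cannot be told apart. The re-separation libraries carry another series of library names and share 0 variant rows with the other 20, and across that divide the effect of time cannot be told apart from that of the library set.

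Libraries held 10560 to 52398 reads at weaning and co-housing and 39735 to 73776 at re-separation; mitochondrial reads, at most 0.829% of a library, were left out. A taxon without reads could have been present at up to 3 reads, which is 0.0088% to 0.0286% of a KO weaning library and 0.0041% to 0.0076% of a WT re-separation library (counting error only; reads after 25 PCR cycles are not independent molecules). All values are shares of the bacterial reads, and fewer cells and fewer 16S copies per cell cannot be told apart. By the mean Bray-Curtis distance of variant shares to the other 4 libraries of its group, library 1 (0.749) and library 5 (0.606) lay farthest out in weaning KO, where the others were at 0.480 to 0.523, library 11 (0.547, others 0.450 to 0.535) in co-housed KO and library 19 (0.543, others 0.382 to 0.487) in co-housed WT. Where leaving out these 4 together changed a call, both values are given.

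vadinBB60 was the most abundant of the 3 taxa in every group, and its mean share was lower in KO than in WT stool after co-housing and after re-separation without passing the test across all genera. At weaning its share was 0.904%, 0.0822%, 0.117%, 0.0393% and 0.505% in KO libraries 1 to 5, against 0%, 0.204%, 0.907%, 0.129% and 0.204% in WT libraries 6 to 10. KO libraries 1 and 5 and WT library 8 were high in their groups, and the groups overlapped over most of their range. After co-housing it was 0.0864%, 0.584%, 0.853%, 1.72% and 1.25% in KO libraries, against 2.36%, 1.62%, 1.89%, 2.07% and 2.76% in WT libraries, and only KO library 14 reached into the WT range. After re-separation it was 0.720%, 1.81%, 0.420%, 0.660% and 3.56% in KO libraries, against 2.81%, 2.75%, 4.11%, 3.73% and 3.53% in WT libraries. Of the KO libraries, 4 lay below all WT libraries and library 25 (3.56%, Wilson 95% interval 3.42% to 3.71%) lay among them.

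The group means of vadinBB60 were 0.330% ± 0.371 in KO and 0.289% ± 0.356 in WT at weaning, 0.899% ± 0.625 in KO and 2.14% ± 0.439 in WT after co-housing, and 1.44% ± 1.30 in KO and 3.38% ± 0.592 in WT after re-separation (SD, n = 5 each). Single libraries weighed on 3 of these means: weaning KO averaged 0.186% without library 1, weaning WT 0.134% without library 8, and re-separated KO 0.904% without library 25. Ordered by mean over all libraries, the groups ran from re-separated WT through co-housed WT, re-separated KO, co-housed KO and weaning KO to weaning WT, and the ranges of neighbours in that order overlapped in every case. In edgeR's quasi-likelihood test on reads summed by genus, with Benjamini-Hochberg adjustment over the 71 genera tested, the KO to WT log2 fold change was -0.75 ± 0.84 at weaning (SE, adjusted p = 0.534), -1.24 ± 0.84 after co-housing (adjusted p = 0.529) and -1.23 ± 0.84 after re-separation (adjusted p = 0.733). The sign at weaning is opposite to that of the mean shares, and it turned with library size alone as the scaling (0.18) and without library 8 (0.20). Without libraries 1, 5, 11 and 19 the weaning value was -2.57 with an adjusted p of 0.0345, which is past the threshold. An exact two-sided permutation test of the shares over the 252 splits gave p = 0.0159 after co-housing and 0.0317 after re-separation, which became 0.540 and 0.278 after adjustment over the 68 and 70 genera with reads; the smallest p this test can give is 0.00794.

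UCG-014 had no reads in any of the 5 KO libraries at weaning and was found in 4 of 5 WT libraries. Its share was 0% in KO libraries 1 to 5, against 0.234%, 0.109%, 0.380%, 0% and 0.0291% in WT libraries 6 to 10. It was at least 9.60-fold lower in KO, taking the KO libraries at their limit of 3 reads (at least 5.94-fold without library 8), with an edgeR adjusted p of 0.000255 (0.00453 without libraries 1, 5, 11 and 19). After co-housing it was 0.0864%, 0%, 0%, 0.802% and 0.0389% in KO libraries, against 0.144%, 0.0798%, 0.0342%, 0.128% and 0.0754% in WT libraries. KO library 14 (Wilson 95% interval 0.689% to 0.933%) was above every other library of the study, and the other 4 lay within or below the WT range.

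After re-separation UCG-014 was at 0.0540%, 0.0773%, 0.101%, 0.0881% and 0.0905% in KO libraries, against 0.0761%, 0.318%, 0.149%, 0.425% and 0.280% in WT libraries. The KO libraries lay within a narrow band that only WT library 26 entered. The means were 0.185% ± 0.346 in KO and 0.0923% ± 0.0440 in WT after co-housing (log2 fold change 0.84 ± 1.18, edgeR adjusted p = 0.911), and 0.0821% ± 0.0178 in KO and 0.250% ± 0.138 in WT after re-separation (-1.35 ± 1.18, adjusted p = 0.744; SD, n = 5 each). Leaving out library 14 brought the co-housed KO mean to 0.0313% and turned the log2 fold change to -1.76 (edgeR adjusted p = 0.486). The order of the group means was re-separated WT, co-housed KO, weaning WT (0.150% ± 0.157), co-housed WT, re-separated KO and weaning KO, and of the neighbours only the last pair did not overlap.

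RF39 also had no reads in the 5 KO libraries at weaning and was found in 3 of 5 WT libraries. Its share was 0% in KO libraries 1 to 5, against 0.0681%, 0%, 0.172%, 0% and 0.320% in WT libraries 6 to 10, and it was at least 7.16-fold lower in KO (at least 3.83-fold without library 10; edgeR adjusted p = 0.00151, or 0.0139 without libraries 1, 5, 11 and 19). The limit of 3 reads in the KO libraries lay below each of the 3 WT shares. After co-housing it was 0% in KO libraries 11 to 14 and 0.0681% in library 15, against 0.332%, 0.0564%, 0.0789%, 0.157% and 0.0754% in WT libraries. All 5 WT libraries and 1 of 5 KO libraries had reads, and library 15 lay above the lowest WT library.

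After re-separation every library held RF39, at 0.0159%, 0.309%, 0.00353%, 0.0676% and 0.00646% in KO libraries, against 0.0217%, 0.0763%, 0.0443%, 0.0514% and 0.101% in WT libraries. KO library 22 (Wilson 95% interval 0.265% to 0.360%) was highest and 3 KO libraries were below all WT libraries. KO libraries 23 (2 reads) and 25 (4 reads) lay below the limit of 3 reads of every weaning KO library (0.0088% to 0.0286%). Such shares could have been missed at weaning. The means were 0.0136% ± 0.0304 in KO and 0.140% ± 0.114 in WT after co-housing (log2 fold change -3.41 ± 1.48, edgeR adjusted p = 0.259), and 0.0805% ± 0.130 in KO and 0.0589% ± 0.0304 in WT after re-separation (0.59 ± 1.34, adjusted p = 0.925; SD, n = 5 each). Without library 15 the co-housing value had an adjusted p of 0.00615, with 0 reads left in KO. Leaving out library 22 brought the re-separated KO mean to 0.0234% and turned the log2 fold change to -0.83. The order of the means was co-housed WT, weaning WT (0.112% ± 0.136), re-separated KO, re-separated WT, co-housed KO and weaning KO, and all neighbours overlapped.

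**Figure D1:**
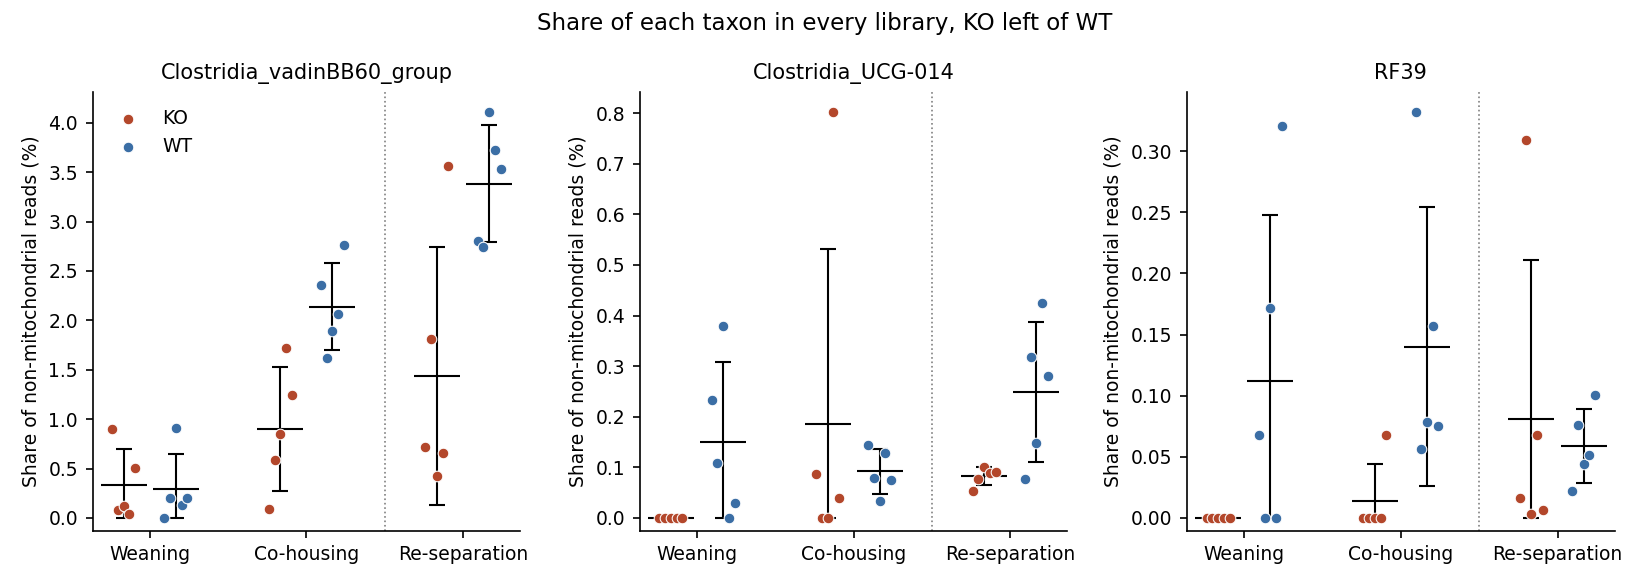
Share of non-mitochondrial reads (%, linear axes of different height) of each taxon in every library, KO in red left of WT in blue at each time; horizontal bars are means and error bars SDs of 5 libraries, cut at 0. UCG-014 and RF39 sit at 0 in all KO libraries at weaning, and vadinBB60 in KO library 25 at re-separation lies at 3.56%, among the WT libraries; the dotted line parts the 2 library sets.

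Over the 3 taxa, KO against WT therefore gave 2 called as lower at weaning, where 15.5% of the 71 genera were called lower. The exact permutation test of shares gave an unadjusted p of 0.0476 for UCG-014 and 0.167 for RF39 at weaning, which are the smallest it can give for taxa with reads in 4 and in 3 of 10 libraries, so it could not have called either after adjustment over 66 genera. After co-housing edgeR called 0 of the 3, against 1.41% of all genera called in either direction. RF39 was the only member with an unadjusted p below 0.05 there (0.0256), DESeq2 called 0 and limma-voom 1. After re-separation edgeR called 0 of the 3 and 0% of all genera, with 0 members at an unadjusted p below 0.05 and 0 called by DESeq2 or limma-voom.

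At the level of variants, weaning KO stool held few kinds of these bacteria. The 5 KO libraries held 305 reads of the 3 taxa from 3 variants, all vadinBB60, against 1119 reads from 30 variants in the 5 WT libraries. Of the WT reads 764 were in library 8. The summed share averaged 0.330% in KO and 0.551% in WT over all libraries. Leaving out the highest library of each group, it averaged 0.186% in KO without library 1 and 0.324% in WT without library 8. vadinBB60 row 181 made up nearly all of the KO reads. It had 191, 28, 10, 13 and 38 reads in KO libraries 1 to 5, against 0 in each WT library. It rose at least 23.9-fold in KO over the limit of 3 reads in WT (at least 11.2-fold without library 1; edgeR adjusted p = 0.0241 over the 292 variants tested). The other KO variants were vadinBB60 row 177, with 15 reads in library 5, and row 374, with 10 reads in library 3.

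The reverse pattern, reads in WT and none in KO, was met by most of the other variants, each in few libraries. vadinBB60 row 463, the most abundant variant of the weaning and co-housing libraries, had 0 reads in KO, against 0, 0, 81, 6 and 8 reads in WT libraries 6 to 10 (at least 2.63-fold lower, adjusted p = 0.0241; without library 8 the WT mean fell below the limit). UCG-014 row 8 had 0 reads in KO, against 47, 0, 98, 0 and 0 in WT (at least 4.95-fold lower, 2.99-fold without library 6 and 3.19-fold without library 8; adjusted p = 0.0377). The calls of vadinBB60 row 211 (163 reads in library 8, adjusted p = 0.0451) and RF39 row 410 (111 reads in library 10, adjusted p = 0.0432) each rested on 1 WT library, and neither DESeq2 nor limma-voom called them.

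The filter of 10 reads in 3 libraries passed 26 members (19 vadinBB60, 4 UCG-014 and 3 RF39, out of 45 with reads). Of these, edgeR thus called 1 higher and 4 lower in weaning KO, against 6.85% of all 292 variants called higher and 14% lower. UCG-014 row 8, vadinBB60 row 211 and RF39 row 410 reached 10 reads only in WT libraries, so they entered the test through the genotype where they were high. Their direction was partly set by that. Of the members not called, vadinBB60 rows 176, 185 and 418, UCG-014 row 215 and RF39 row 512 entered in the same way. How many variants outside the 3 taxa did so was not counted. DESeq2 called 1 higher and 1 lower, limma-voom 1 higher and 0 lower, and edgeR without libraries 1, 5, 11 and 19 called 0 of 23 (8 with an unadjusted p below 0.05), rows 181 and 463 then having an adjusted p of 0.0796, row 8 of 0.136 and row 410 of 0.158; row 211 did not pass the filter there. Without library 3 or library 8 edgeR called only row 181, and without library 1, 2, 4, 5 or 6 it called 2. Counting only the 12 members with a mean share above the limit in either group, the median log2 ratio of mean shares, with groups at 0 taken at the limit, was -0.70, against 0.10 over 216 of the 292 variants.

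**Figure D2:**
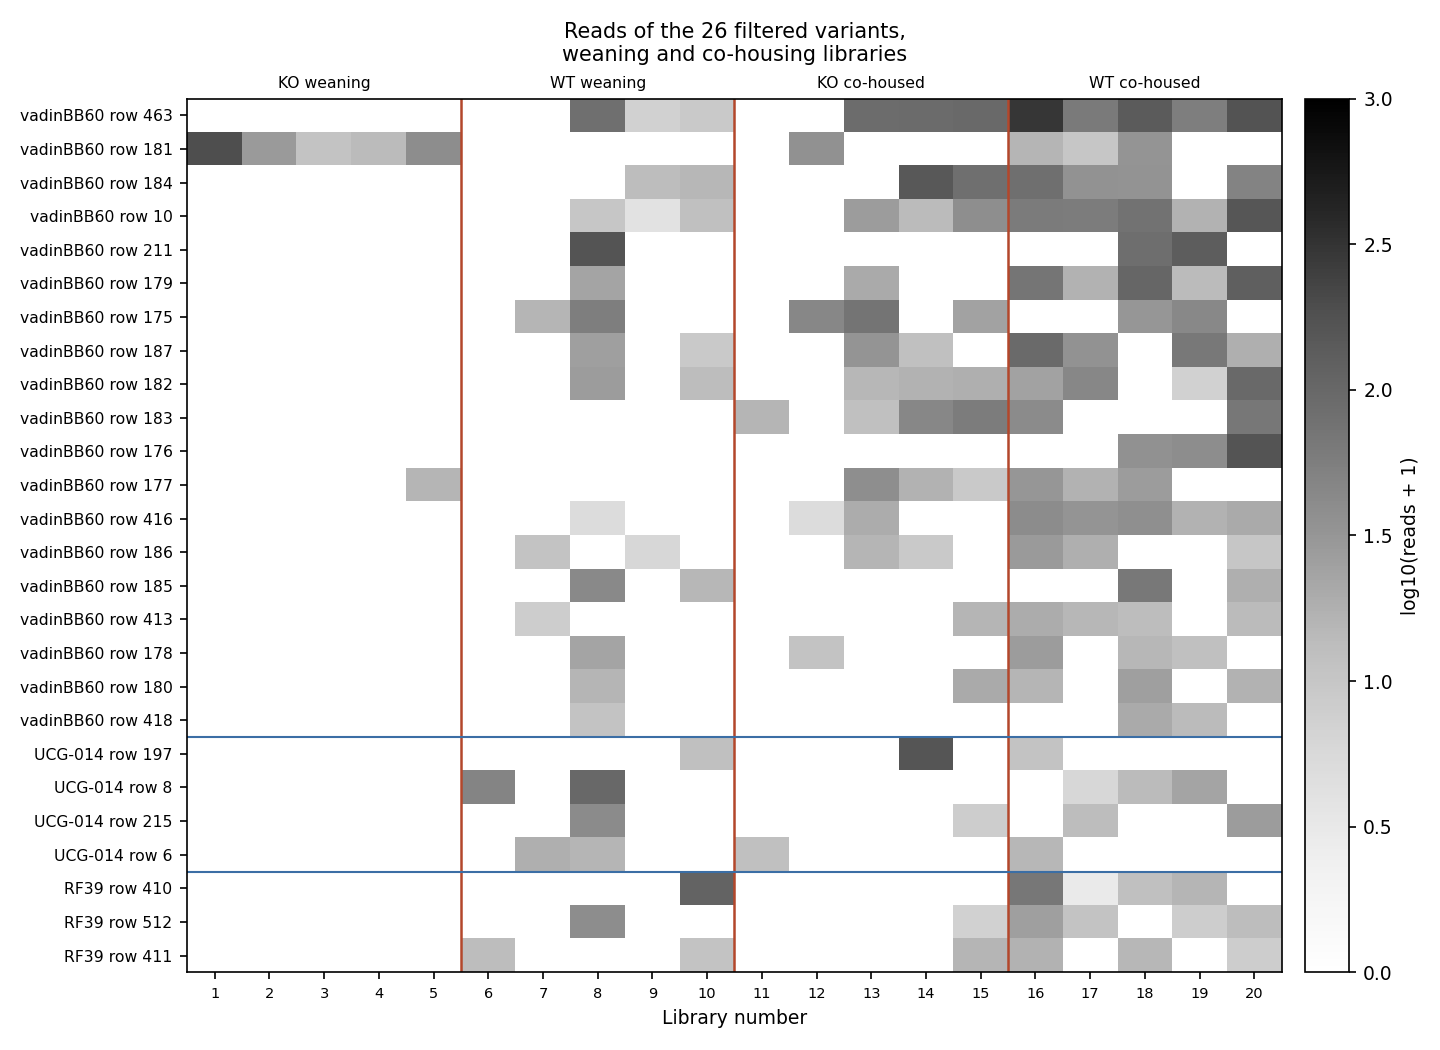
Reads of the 26 filtered variants (lines, by taxon and then by mean share) in libraries 1 to 20 (columns), as log10(reads + 1) from 0 in white to 3 in black; red lines part the groups of 5, blue lines the taxa. In the KO weaning columns only vadinBB60 rows 181 and 177 are shaded, while library 8 carries most of the WT weaning reads.

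After co-housing KO stool held 1430 reads from 26 variants of the 3 taxa, against 3662 reads from 38 variants in WT stool. vadinBB60 row 463 had 0, 0, 88, 90 and 97 reads in KO libraries 11 to 15, against 304, 62, 136, 56 and 168 in WT libraries 16 to 20. It was absent from 2 KO libraries and present in every WT library. vadinBB60 row 179 had 19 reads in KO library 13 and none in the other 4, against 69, 16, 101, 13 and 123 reads in WT libraries. vadinBB60 row 416 had 4 and 18 reads in KO libraries 12 and 13 and none in the other 3, against 39, 32, 36, 16 and 19 in WT libraries. All 3 were found in every WT library and in no more than 3 KO libraries. vadinBB60 row 10 had 0, 0, 26, 13 and 37 reads in KO libraries, against 61, 59, 74, 16 and 158 in WT libraries, and row 187 had 0, 0, 32, 11 and 0 in KO libraries, against 94, 34, 0, 64 and 17 in WT libraries. Of the variants called lower in weaning KO, UCG-014 row 8, vadinBB60 row 211 and RF39 row 410 still had 0 reads in the 5 co-housed KO libraries, against 40, 213 and 93 reads in all in co-housed WT libraries. UCG-014 row 197 ran the other way, with 160 reads in KO library 14 alone, against 10 in WT library 16 alone.

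None of the 26 passed edgeR's test between KO and WT after co-housing, when 1.03% of all 292 variants did. Unadjusted p-values were below 0.05 for 6, all lower in KO; DESeq2 called 0 and limma-voom 1, vadinBB60 row 179 (adjusted p = 0.00601). The ratio of mean shares was below 1 for 20 members and above it for 6, with a median log2 ratio of -1.40, against -0.45 over 287 variants with a ratio. Among the 20, 6 had 0 reads in co-housed KO libraries: UCG-014 row 8, vadinBB60 rows 176, 185, 211 and 418, and RF39 row 410. They reached 10 reads in WT libraries only, so the filter partly set their direction and the median. Of all 292 variants, 27 had reads in co-housed WT but not in co-housed KO libraries.

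Between weaning and co-housing, several variants appeared in KO stool. edgeR called 7 of the 26 higher in co-housed than in weaning KO libraries, where 22.6% of all variants were called higher; each of the 7 had 0 reads in the 5 weaning KO libraries. They were vadinBB60 row 463 (at least 12.3-fold, adjusted p = 0.0118), row 184 (0, 0, 0, 150 and 82 reads in libraries 11 to 15, at least 12.7-fold, 4.25-fold without library 14, adjusted p = 0.0246), row 175 (at least 6.73-fold, but 3.95-fold when library 12 is left out), row 183 (at least 6.25-fold), row 10 (at least 3.14-fold, but 2.01-fold when library 15 is left out) and row 182 (at least 2.13-fold), and UCG-014 row 197 (at least 9.87-fold, all 160 reads in library 14). Without library 14 the bound of row 183 fell to 4.42-fold and that of row 182 to 1.42-fold. Row 182 (edgeR adjusted p = 0.0485) lost its call in 14 of 18 alternative settings. With any of libraries 1 to 5 left out edgeR called 1 or 2 members. DESeq2 called 3, limma-voom 2 higher and 1 lower, and edgeR without libraries 1, 5, 11 and 19 called 0 of 23 (10 with an unadjusted p below 0.05), with adjusted p-values from 0.0504 for row 463 to 0.115 for row 197.

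In WT stool the same comparison called 0 of the 26 in edgeR, against 0.685% of all variants; 5 were higher at an unadjusted p below 0.05, DESeq2 called 0 and limma-voom 5 higher (vadinBB60 rows 10, 176, 179, 416 and 463). vadinBB60 row 176 had reads in no other group, with 35, 38 and 163 in WT libraries 18 to 20. The change over time did not pass the test of a difference between KO and WT for any of the 26 in edgeR (6 at an unadjusted p below 0.05; DESeq2 0, limma-voom 1), against 6.16% of all variants.

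Summed by genus, UCG-014 and RF39 were called higher in co-housed than in weaning KO libraries, 2 of the 3 taxa against 19.7% of all genera called higher. UCG-014 was at least 11.8-fold higher (adjusted p = 0.000808), a bound that fell to 2.00-fold without library 14. The call of RF39 (adjusted p = 0.0438) rested on the 21 reads of library 15, a mean below the limit of 3 reads at weaning, so no fold is given. Its adjusted p was 0.0717 to 0.0897 without library 1, 2, 3 or 4, and 0.0766 without libraries 1, 5, 11 and 19. vadinBB60 had a log2 fold change of 1.61 ± 0.85 (adjusted p = 0.134), but 2.50 with an adjusted p of 0.0428 without library 1 and 3.72 with an adjusted p of 0.00281 without libraries 1, 5, 11 and 19.

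In WT stool edgeR called 0 of the 3 taxa between these times (1 at an unadjusted p below 0.05), against 29.6% of all genera called in either direction; DESeq2 called 0 and limma-voom 1. The log2 fold change of co-housed over weaning WT libraries was 2.10 ± 0.87 for vadinBB60 (adjusted p = 0.0527, or 0.0235 without libraries 1, 5, 11 and 19 and 0.0141 without library 8), -1.34 ± 1.19 for UCG-014 (adjusted p = 0.341) and -0.52 ± 1.34 for RF39 (adjusted p = 0.760). The change of UCG-014 differed between the genotypes, with an adjusted p of 0.00241 for the interaction, which was higher in KO; that was 1 of the 3 taxa, against 4.23% of all genera, and limma-voom did not call it (adjusted p = 0.231). RF39 had an adjusted p of 0.140 and vadinBB60 of 0.963 in the same test.

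Presence of single variants showed how far KO and WT libraries shared these bacteria. At weaning 32 of the 45 members of the weaning and co-housing libraries had reads, and 2 of the 32 (6.25%) were in KO only, 29 (90.6%) in WT only and 1 (3.13%) in both. Of the 305 other bacterial variants with reads at weaning, 24.3% were in KO only, 35.7% in WT only and 40.0% in both. After co-housing the members split into 4 in KO only, 16 in WT only and 22 (52.4%) in both, beside 64.9% in both for the 390 other variants. After re-separation 8 were in KO only, 8 in WT only and 35 of 51 (68.6%) in both, beside 68.9% of 415 other variants. These shares are descriptions with no test, and a WT weaning library had more reads on average (29919) than a KO weaning library (23189). Library 8, the deepest WT weaning library with 52398 reads, alone held 21 of the 30 variants found in WT then. Several of the WT-only members, such as vadinBB60 rows 178, 179 and 211, had weaning reads in library 8 alone.

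**Figure D3:**
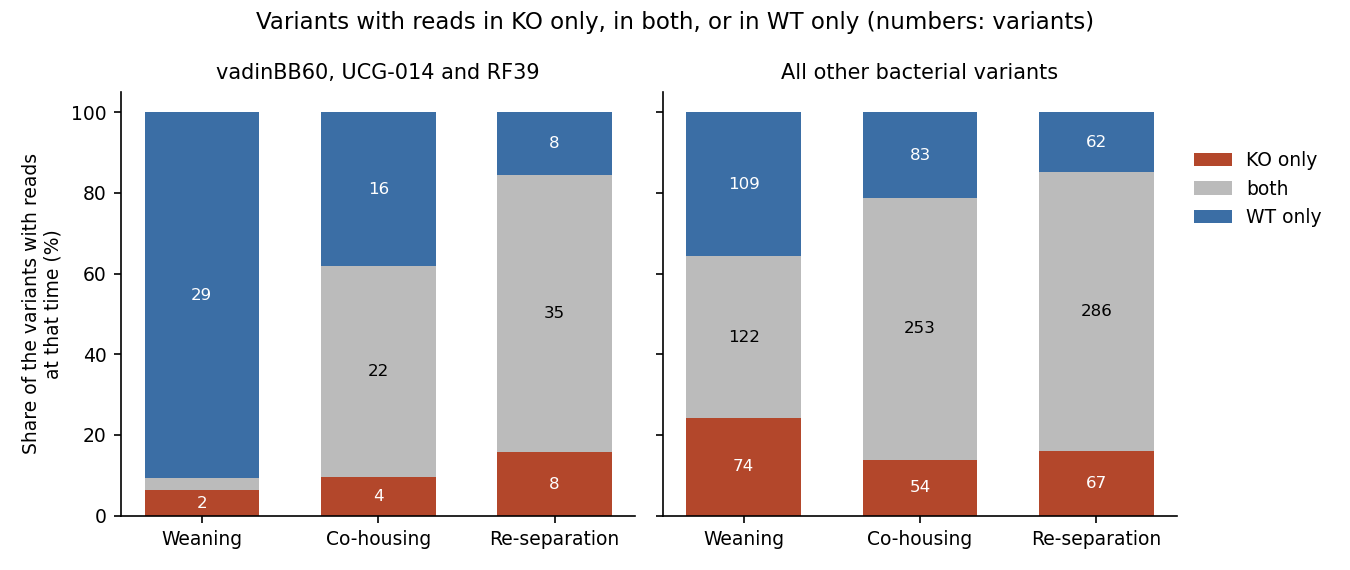
Share of variants with reads in KO libraries only (red), in both genotypes (grey) or in WT libraries only (blue) at each time, for the 3 taxa on the left and all other bacterial variants on the right; numbers in the bars count variants. At weaning 29 of the 32 members are in WT only, while after re-separation both panels have 69% of variants in both, to the nearest percent.

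Of the 29 members that only WT libraries held at weaning, 18 (62.1%) had reads in KO libraries after co-housing, and 25 (86.2%) had reads in WT libraries then. Among other bacterial variants the counts were 67 of 109 (61.5%) in KO and 84 of 109 (77.1%) in WT. By taxon, 12 of 15 such vadinBB60 variants, 4 of 8 of UCG-014 and 2 of 6 of RF39 had reads in co-housed KO stool. Both variants that only KO libraries held at weaning, vadinBB60 rows 181 and 177, had reads in WT libraries after co-housing. Row 181 then had 35 reads in KO library 12 and none in the other 4, against 15, 9, 32, 0 and 0 reads in WT libraries. A further 13 members had no reads at weaning and appeared after co-housing, 2 in KO only, 8 in WT only and 3 in both.

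The number of variants of the 3 taxa per library was 1, 1, 2, 1 and 2 in KO libraries at weaning, against 4, 4, 21, 4 and 10 in WT libraries. After co-housing it was 4, 4, 11, 11 and 15 in KO libraries, against 25, 16, 19, 18 and 20 in WT libraries. The groups did not overlap at either time. Other bacterial variants were not counted by library, so whether the whole community went the same way was not tested. By group, 109 other variants were in WT only and 74 in KO only at weaning, and 83 and 54 after co-housing. At re-separation these were 62 and 67. The number of variants of the 3 taxa per library after re-separation was 20, 18, 16, 24 and 28 in KO, against 25, 29, 28, 34 and 26 in WT. Only KO library 25 lay within the WT range.

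Computing the number expected at a common depth, with any read of a variant counted as found, changed these numbers little. The table itself rarely holds such low counts (5 of the 441 non-zero member counts were below 3). Fewer variants might therefore be reported at that depth, and the computation cannot decide how much depth mattered. At the depth of the smallest library (10491 bacterial reads), the expected mean number was 1.40 in KO and 8.21 in WT at weaning, 8.91 in KO and 19.3 in WT after co-housing, and 18.2 in KO and 26.3 in WT after re-separation, where all reads had given 1.4 and 8.6, 9 and 19.6, and 21.2 and 28.4. The deepest WT weaning library, library 8 with 52398 reads, still had an expected 19.6 of its 21 variants. At the same depth UCG-014 would be expected in 3.97 and RF39 in 3.00 of the 5 WT weaning libraries.

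**Figure D4:**
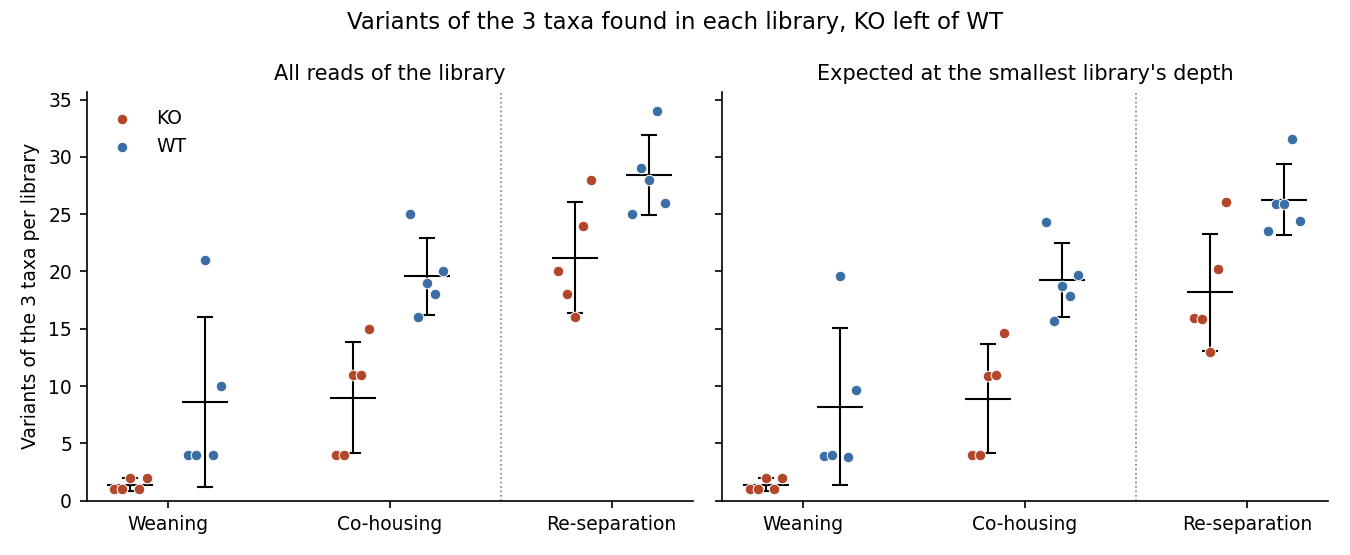
Variants of the 3 taxa found in each library, with all reads (left) and as the number computed for 10491 reads, any read counting as found (right). KO is in red left of WT in blue, bars are means and error bars SDs of 5 libraries, cut at 0. The KO libraries at weaning hold 1 or 2 variants each and the dotted line parts the 2 library sets, which share no variant.

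After re-separation the 3 taxa had 4744 reads from 43 variants in KO stool, against 10008 reads from 43 variants in WT stool. Much of the difference in reads lay in vadinBB60 rows 980 and 909. UCG-014 had fewer reads in KO as well (244 against 645). vadinBB60 row 980, with 30.2% of the taxon's reads in this library set, had 7, 0, 0, 0 and 846 reads in KO libraries 21 to 25, against 350, 745, 661, 751 and 710 in WT libraries 26 to 30. vadinBB60 row 909, with 14.5%, had 0, 0, 0, 0 and 204 reads in KO libraries, against 753, 131, 458, 187 and 227 in WT libraries. KO library 25 held both at WT levels and the other 4 KO libraries held 7 reads of them in all. Over all its variants library 25 had a mean Bray-Curtis distance of 0.377 to the other KO libraries, beside 0.362 to 0.376 for those 4.

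The KO libraries were not short of every variant. vadinBB60 row 1589 had 0, 621, 68, 121 and 199 reads in KO libraries, against 39, 17, 231, 23 and 67 in WT libraries. vadinBB60 row 904 had 178, 49, 25, 29 and 20 reads in KO libraries, against 15, 0, 8, 74 and 0 in WT libraries. UCG-014 row 572, the leading variant of its taxon with 51.7% of its reads, had 0, 0, 0, 45 and 10 reads in KO libraries, against 34, 108, 34, 169 and 60 in WT libraries, while UCG-014 row 937 had 0, 36, 48, 6 and 14 in KO libraries, against 16 in WT library 29 alone. RF39 row 1455 had 144 of the 164 RF39 reads of KO library 22, with 16 and 4 reads in KO libraries 24 and 25 and none in WT libraries. RF39 row 1713, the only RF39 variant to pass the filter, reached 10 reads in WT libraries only. It had 9 reads in KO library 24 alone, against 10, 20, 11, 11 and 23 in WT libraries.

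The 12 variants with the highest mean share in these libraries also included vadinBB60 rows 896, 892, 891, 579, 905, 1468 and 901. Of these, row 896 averaged 0.0910% ± 0.129 in KO and 0.304% ± 0.213 in WT libraries (SD, n = 5 each; log2 fold change -1.85 ± 0.96, adjusted p = 0.548). Row 892 averaged 0.0653% ± 0.107 in KO and 0.173% ± 0.0809 in WT libraries (-1.59 ± 1.53, adjusted p = 0.732). The SD within KO was larger than the KO mean in both. Row 905 had 32, 159, 0, 52 and 31 reads in KO libraries, against 32, 0, 0, 72 and 33 in WT libraries (log2 fold change 0.94 ± 1.52, adjusted p = 0.777), and its groups overlapped.

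None of the 26 filtered members (20 vadinBB60, 5 UCG-014 and 1 RF39, out of 51 with reads) passed edgeR's test between re-separated KO and WT libraries, when 1.44% of the 278 variants did, and 0 had an unadjusted p below 0.05. DESeq2 called 0 and limma-voom 5, all lower in KO: vadinBB60 rows 980 (adjusted p = 0.00816), 909 (0.00355) and 1470 (0.0450), UCG-014 row 572 (0.0369) and RF39 row 1713 (0.0450). Without library 25 edgeR called 3 lower, vadinBB60 rows 909 (adjusted p = 0.00145), 980 (0.00546) and 898 (0.0240). With that library gone, rows 909 and 898 had 0 reads in KO and row 980 had 7, in library 21. All 3 then passed the filter through WT libraries only, so leaving out library 25 largely set their direction. In the fit to all 10 libraries the log2 fold change was -2.47 ± 1.82 for row 980 (adjusted p = 0.670) and -3.48 ± 1.82 for row 909 (adjusted p = 0.548). The mean share was lower in KO for 21 members and higher for 5, with a median log2 ratio of -1.39, against -0.32 over all 278 variants, of which 164 were lower.

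**Figure D5:**
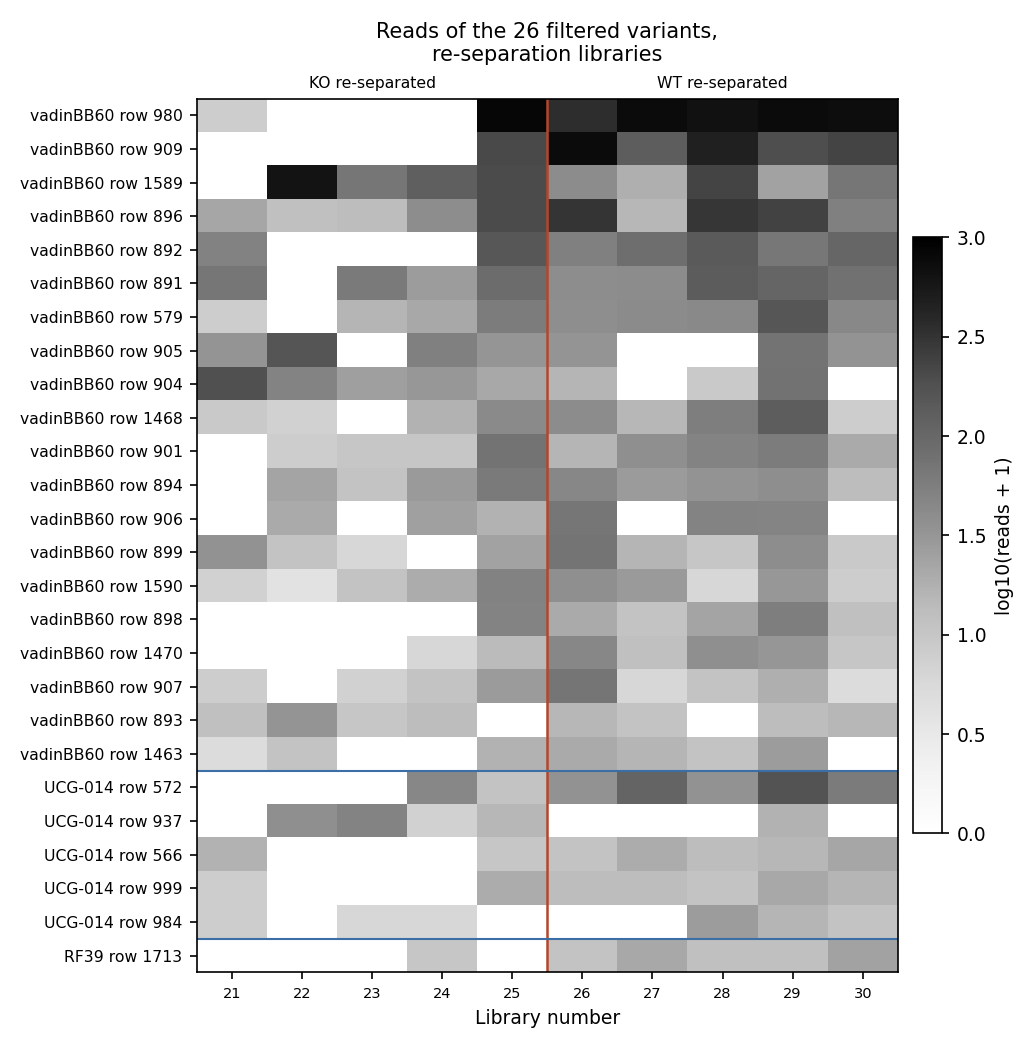
Reads of the 26 filtered variants (lines) in libraries 21 to 30 (columns), as log10(reads + 1) from 0 in white to 3 in black; KO libraries left of the red line, WT libraries right of it, blue lines between taxa. vadinBB60 rows 980 and 909 are dark in library 25 and in all 5 WT libraries, and white or nearly so in KO libraries 21 to 24.

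Between co-housing and re-separation edgeR called 0 of the 3 taxa in KO stool (1 at an unadjusted p below 0.05; DESeq2 0, limma-voom 1), against 21.1% of all genera, and 0 in WT stool (0 at an unadjusted p below 0.05; DESeq2 and limma-voom 0), against 1.41%. In KO stool the log2 fold change of re-separation over co-housing was 0.91 ± 0.84 for vadinBB60, -0.64 ± 1.17 for UCG-014 and 2.94 ± 1.45 for RF39 (adjusted p = 0.142), and in WT stool 0.90 ± 0.84, 1.55 ± 1.19 and -1.05 ± 1.35. That of UCG-014 in KO turned to 1.96 without library 14, and RF39 in KO passed the test without library 15 (adjusted p = 0.0134), with 0 reads left in co-housed KO. The difference of these changes between KO and WT was called for 0 of the 3 taxa (1 at an unadjusted p below 0.05; DESeq2 and limma-voom 0) and for 0% of all genera; without library 15 it was called for 1 taxon.

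Set against weaning, re-separated KO libraries were called higher for all 3 taxa, against 23.9% of all genera. vadinBB60 had a log2 fold change of 2.52 ± 0.88 (adjusted p = 0.0249). UCG-014 was at least 5.24-fold (adjusted p = 0.00071) and RF39 at least 5.14-fold higher (adjusted p = 0.0026), and the bound of RF39 fell to 1.49-fold without library 22. In WT stool 1 of the 3 was called higher, against 9.86% of all genera: vadinBB60 rose by a log2 fold change of 3.01 ± 0.90 (adjusted p = 0.0255), while UCG-014 had 0.22 ± 1.17 (adjusted p = 0.904) and RF39 -1.57 ± 1.37 (adjusted p = 0.424). The change differed between the genotypes for UCG-014 (adjusted p = 0.0109) and RF39 (adjusted p = 0.00687), higher in KO, 2 of the 3 taxa against 14.1% of all genera, though limma-voom did not call RF39 (adjusted p = 0.168); for vadinBB60 the adjusted p was 0.830. The vadinBB60 call in KO was lost with DESeq2 size factors (adjusted p = 0.0726), library size alone (0.0748) or only the compared groups in the fit (0.0539), without library 2, 3 or 4 (adjusted p = 0.0592 to 0.0753) and without library 25 (log2 fold change 1.56, adjusted p = 0.274), and that in WT without library 7, 9 or 10 (adjusted p = 0.0562 to 0.0794). All contrasts against weaning use the same weaning libraries, and those with re-separation cross the library sets.

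The other genera of the same classes give the setting. At weaning 2 of 34 other Clostridia genera were called higher and 4 lower in KO stool, and of 6 other Bacilli genera 0 were higher and 2 lower. Of 29 other genera with placeholder names (codes given to uncultured groups), 2 were higher and 6 lower. After co-housing 1 of the other Clostridia genera and 1 of the placeholder genera were called lower, and after re-separation 0 of either list. Between weaning and co-housing 9 of the 34 Clostridia genera rose and 1 fell in KO stool, and 12 rose and 0 fell in WT stool, where 2 of the 6 Bacilli genera fell. The interaction from weaning to re-separation was called higher in KO for 4 of the 6 Bacilli genera and lower for 0. Among the 34 Clostridia genera it was higher for 2 and lower for 1. From weaning to co-housing it was higher for 2 of the 6 Bacilli and 0 of the 34 Clostridia genera. In KO stool 7 of the 34 Clostridia and 2 of the 6 Bacilli genera were higher at re-separation than at weaning. Lists overlap where a Clostridia or Bacilli genus has a placeholder name.

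The genera whose share ran most like that of vadinBB60 over the 20 weaning and co-housing libraries were Odoribacter (Spearman rho 0.73), GCA-900066575 (0.71) and Tuzzerella (0.70), out of 62 genera with reads in at least 5 libraries. For UCG-014 they were unclassified Flavobacteriaceae (0.70), NK4A214_group (0.61) and Odoribacter (0.59), and for RF39 they were UCG-005 (0.81), Odoribacter (0.66) and unclassified Flavobacteriaceae (0.60). Over the 10 re-separation libraries and 63 genera they were Tyzzerella (0.94), Colidextribacter (0.89) and Lachnospiraceae_UCG-001 (0.87) for vadinBB60, [Eubacterium]_siraeum_group (0.77), Oscillospira (0.77) and Ruminococcus (0.77) for UCG-014, and Alloprevotella (0.60), Bacteroides (0.60) and Candidatus_Arthromitus (0.60) for RF39. By raw shares no genus stood among the first 3 of a taxon in both library sets, while by centred log-ratios Odoribacter did so for RF39 (rho 0.62 over the first 20 libraries and 0.71 over the last 10). Among themselves the 3 taxa had rho values of 0.39 to 0.55 over the first 20 libraries and 0.10 to 0.48 over the last 10. These are descriptions over libraries that share groups, depth and a fixed total of 100%.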

How the data were processed

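The authors deposited raw counts: how many reads of each library fell to each 16S V4 sequence variant. The table's name points to DADA2; its version, its settings and the taxonomic reference were not given in the sources used here. Per the labels, stool DNA was amplified over 25 PCR cycles and sequenced as paired ends on an Illumina MiSeq, and R 4.5.1 and limma are listed in the submitters' processing notes. Counts of 1 were almost lacking (5 in the table, 0 among members), so rare variants may be missing. Mitochondrial rows (4 with reads) were left out.

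Shares, Wilson 95% intervals and exact permutation tests were computed in Python 3.11.15 with scipy 1.17.1. Group differences were tested with edgeR 4.0.16 (quasi-likelihood, robust, TMMwsp scaling, 1 coefficient per group) in R 4.3.3, on variants within each library set and on reads summed by genus over all 30 libraries; features needed 10 reads in 3 libraries, and p-values were adjusted over all features tested at a threshold of 0.05. DESeq2 1.42.0, limma-voom (limma 3.58.1), 2 other scalings, 2 other filters, fits to the compared groups only and fits without each library were alternatives. The fit was also run on simulated counts with known changes. No group was set to be without reads there, so that run does not test calls in which a group held none. All 3 taxa were named in every group, and of the variants those called plus the 12 with the highest mean share per set; rows 374, 1455, 1470, 898, 937, 1713, 177, 179, 416 and 176 were picked after their values were seen where that rule did not reach them. The taxa, lists and alternatives were chosen with earlier results of these data known. No paired test was made, since labels give no pairs.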

Additional observations from a re-analysis of the deposited data

Results flagged for a closer look

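In 4 of the 16 groups of shares examined, 1 library lay far from the other 4 of its group by Dixon's test. The test's rate of about 1 group in 20 by chance holds for normally distributed values. Shares with several at 0 are not such values, and a group with reads in 1 library only is always marked. The 4 can therefore not be set against that rate. UCG-014 reached 0.802% in co-housed KO library 14, against 0% to 0.0864% in the other 4, and 160 of its 166 UCG-014 reads there were of row 197. RF39 was at 0.0681% in co-housed KO library 15 and at 0% in the other 4. RF39 was at 0.309% in re-separated KO library 22, against 0.00353% to 0.0676%. vadinBB60 was at 0.907% in WT weaning library 8, the deepest of its group, against 0% to 0.204%.

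For 3 results the change over time differed between KO and WT in edgeR's interaction test: UCG-014 between weaning and co-housing (adjusted p = 0.00241), UCG-014 between weaning and re-separation (adjusted p = 0.0109) and RF39 between weaning and re-separation (adjusted p = 0.00687). In each, the weaning KO libraries held 0 reads, so the fitted log2 values (10.09, 7.90 and 9.61) give no size. Without library 14 the first had an adjusted p of 0.0166, and without library 22 the third had 0.0262. The same interaction as the third was called higher in KO for 4 of the 6 other Bacilli genera.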

How the results depend on the processing

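The lower counts of UCG-014 and RF39 in weaning KO libraries were called under every edgeR, DESeq2 and limma-voom setting run. The exact permutation test of shares gave 0 calls of the 3 taxa at weaning, but it could not have called those with reads in 4 or 3 libraries. Where a value below differs, the cause was not tested, beyond that leaving out libraries or testing other features changes what is fitted. Member variants called at weaning numbered 5, but 3 with DESeq2 size factors, 2 with library size alone, 2 by DESeq2, 1 by limma-voom, 1 with only the compared groups in the fit, 1 to 5 with single libraries left out and 0 without libraries 1, 5, 11 and 19. The filter of 10 reads in 5 libraries also gave 5, but not the same ones. It called vadinBB60 rows 181, 463, 10, 175 and 182, and rows 8, 211 and 410 did not pass it. Those called between co-housed and weaning KO numbered 7, all higher, but 3 by DESeq2, 3 by limma-voom (2 higher and row 181 lower), 4 without a filter, 1 to 9 with single libraries left out (the 9, without library 12, again with row 181 lower) and 0 without those 4. limma-voom called 1 variant between KO and WT after co-housing, 5 over time in WT, 1 in the interaction and 5 after re-separation, where edgeR called 0; with single libraries left out edgeR called 0 to 1 in the interaction and 0 to 3 after re-separation.

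Of the 3 taxa, limma-voom called 1 between KO and WT after co-housing (0 to 1 with single libraries left out). Between weaning and co-housing in KO, 1 was called in place of 2 with DESeq2 size factors, DESeq2, limma-voom or only the compared groups (1 to 2 with single libraries left out). In WT over the same time, 1 was called with library size alone, limma-voom, no filter, 10 reads in 5 libraries, only the compared groups or without libraries 1, 5, 11 and 19 (0 to 1 with single libraries left out). Between co-housing and re-separation in KO limma-voom called 1 (0 to 1 with single libraries left out), and the interaction over that time gave 0 to 1 with single libraries left out. Re-separation over weaning gave 2 in KO with DESeq2 size factors, library size alone or only the compared groups, and 2 to 3 in KO and 0 to 1 in WT with single libraries left out. limma-voom called 0 in the interaction from weaning to co-housing, losing UCG-014, and 1 in that to re-separation, losing RF39.

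Some log2 fold changes turned sign. For KO over WT these were vadinBB60 at weaning (0.18 with library size alone, 0.20 without library 8; -1.63 to 0.20 with single libraries left out), UCG-014 after co-housing (-1.70 by limma-voom, -1.76 without library 14; -1.76 to 1.202) and RF39 after re-separation (-0.88 by limma-voom, -0.83 without library 22; -0.83 to 0.92). Over time they were RF39 between weaning and co-housing in WT (0.31 with library size alone, 0.88 by limma-voom, 0.53 without library 10; -0.98 to 0.53), UCG-014 between co-housing and re-separation in KO (2.11 by limma-voom, 1.96 without library 14; -0.96 to 1.96), UCG-014 between weaning and re-separation in WT (-0.10 without library 9, -0.03 without library 10; -0.10 to 0.95) and RF39 there (0.030 by limma-voom). In the interactions they were vadinBB60 from weaning to co-housing (0.39 without library 1, -1.44 to 0.39, 1.77 without libraries 1, 5, 11 and 19) and to re-separation (0.40, -1.44 to 0.40, and 1.34), and RF39 to co-housing (-0.20 by limma-voom). From co-housing to re-separation vadinBB60 had an interaction near 0 (0.0072), which was negative with DESeq2 size factors (-0.039), by DESeq2 (-0.039) and without libraries 1, 5, 11 and 19 (-0.43) and ran between -0.31 and 0.32 with single libraries left out, and UCG-014 (-2.19) turned by limma-voom (0.49) and without library 14 (-2.55 to 0.41). None of these was called under the setting that turned it. As a share of Clostridia and Bacilli reads only, the 3 taxa together averaged 1.94% in KO and 4.25% in WT at weaning, 2.30% in KO and 6.55% in WT after co-housing, and 8.79% in KO and 15.1% in WT after re-separation. RF39 row 410 at weaning without library 10, and RF39 between weaning and co-housing in KO without library 15, had no reads left to test. No paired analysis was possible because library numbers are unique and the labels tie no KO library to a WT library. Depth limits what can be said of absent variants to shares above 3 reads of a library, and 5 libraries a group limit all tests.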
